A study of Homo sapiens with 8 samples.

Results

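The genes described here encode the pre-B-cell receptor and the first proteins that carry its signal: IGLL1, VPREB1, VPREB3, CD79A, CD79B, LYN, BLK, SYK, BTK and BLNK. They were chosen by name, as a list of 10 genes, and all 10 were among the 23621 genes of the deposited tables and among the 11465 genes expressed highly enough to be tested. The libraries were made from the established human cell line NALM6, a leukemia arrested at the B-cell precursor stage, with poly(A) RNA and ERCC spike-ins, which are synthetic RNAs added in a fixed amount so that levels can be scaled per cell. Every group carried a doxycycline-inducible HMGN1 construct, HMGN1 being a nucleosome-binding protein encoded on chromosome 21. The 4 groups were the S20,24E mutant that does not bind nucleosomes (SE) with doxycycline (DOX), SE with vehicle, wild-type HMGN1 (WT) with DOX, and WT with vehicle, each with 2 libraries marked by the letters A and B. DOX was given at 100 ng/ml, and both treatments lasted 6 hours. SE and WT were separate engineered lines, and the sources used here give neither the promoter of the construct nor the number of clones.

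The pre-B-cell receptor is the checkpoint receptor of early B-cell development. It pairs an immunoglobulin heavy chain with a surrogate light chain, made of the VPREB1 and IGLL1 proteins, in place of a conventional light chain. The pair is held at the membrane by CD79A and CD79B, whose cytoplasmic tails carry the tyrosine motifs that Src family kinases such as LYN and BLK phosphorylate. SYK docks on these motifs, and the adaptor BLNK then brings SYK together with BTK and phospholipase C gamma. In leukemias arrested at the B-cell precursor stage the receptor can be present or absent, and the genes of the complex serve as markers of that stage.

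The upstream sequences of 4 genes are shown as examples. For IGLL1 and VPREB3 the ratio to VPREB1, and for CD79A the ratio to CD79B, separated the SE from the WT libraries, as described further on. Each is the 250 bases before the annotated start in RefSeq (GRCh38.p14), read 5′ to 3′ on the gene's strand. They lie at chr22:23580291-23580540 on the minus strand for IGLL1, chr22:22244536-22244785 on the plus strand for VPREB1, chr22:23754426-23754675 on the minus strand for VPREB3 and chr19:41877029-41877278 on the plus strand for CD79A. Capitals mark matches to CCCNNGGG, the core letters bound by the B-lineage factor EBF1.
IGLL1: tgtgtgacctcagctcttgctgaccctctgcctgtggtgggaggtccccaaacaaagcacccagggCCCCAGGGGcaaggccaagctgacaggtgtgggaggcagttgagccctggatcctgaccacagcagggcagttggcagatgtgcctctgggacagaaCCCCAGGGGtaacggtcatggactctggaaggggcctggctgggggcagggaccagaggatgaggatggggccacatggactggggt
VPREB1: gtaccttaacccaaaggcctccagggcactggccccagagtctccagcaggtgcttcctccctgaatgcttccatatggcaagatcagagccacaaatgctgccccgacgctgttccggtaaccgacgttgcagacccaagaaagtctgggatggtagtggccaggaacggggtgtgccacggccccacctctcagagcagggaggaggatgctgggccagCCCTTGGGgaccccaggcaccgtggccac
VPREB3: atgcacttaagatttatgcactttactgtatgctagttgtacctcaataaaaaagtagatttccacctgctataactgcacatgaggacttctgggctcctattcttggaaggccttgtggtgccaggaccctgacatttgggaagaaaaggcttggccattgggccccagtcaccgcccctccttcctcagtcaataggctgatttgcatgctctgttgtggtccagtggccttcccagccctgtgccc
CD79A: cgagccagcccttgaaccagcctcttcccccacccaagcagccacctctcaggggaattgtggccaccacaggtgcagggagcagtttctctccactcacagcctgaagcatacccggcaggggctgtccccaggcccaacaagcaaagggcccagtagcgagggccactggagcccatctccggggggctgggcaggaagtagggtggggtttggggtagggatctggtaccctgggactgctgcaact

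The letters CCCNNGGG, searched on both strands, occurred in 17.1% of the 35116 windows of this length in the RefSeq table. IGLL1 held 4 matches in 2 places, because each run of 9 capitals contains the motif at 2 overlapping positions, starting 184 and 183, and 87 and 86, bases before the start. VPREB1 held 1 match, starting 29 bases before the start, and VPREB3 and CD79A held none. Windows were at hand for 7 of the 10 genes, and 3 of these had a match, the third being BTK. SYK had 3 windows without a match, and BTK had 2, of which 1 held the match. The count of 3 is per gene, whereas the 17.1% is per window. The E-box letters CANNTG, which TCF3 binds, occurred in 61.8% of all windows, with 5 matches in IGLL1, 3 in VPREB1, 3 in VPREB3 and 1 in CD79A, none of them overlapping a capital run. A match is a string of letters and no evidence of binding.

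The identity of the cells was checked with marker lists. All 8 B-cell precursor markers were expressed, and their summed level ran from 855 to 908 unnormalized FPKM in SE libraries and from 697 to 880 in WT libraries. FPKM counts fragments relative to the transcript's length and to all fragments mapped. None of 6 T-cell and none of 5 erythroid markers reached the level needed for testing, and the highest single values were 0.0386 (CD3D) and 0.0647 (ALAS2). Of 6 markers of mature B and plasma cells 3 were tested, with a summed level of all 6 of 10.5 to 13.8 in SE and 11.2 to 15.0 in WT. Of 6 myeloid markers LYZ alone was tested, and the summed level was 1.55 to 2.30 in SE and 1.83 to 4.90 in WT. HMGN1 itself read 1421 and 1061 unnormalized FPKM in SE DOX (A, then B), 1427 and 1066 in SE vehicle, 792.9 and 795.3 in WT DOX and 809.2 and 796.0 in WT vehicle, so it was not higher with DOX in either line. The spike-ins took 0.531 to 1.06% of the unnormalized signal, with the largest share in SE DOX A. The files hold no counts, and the depth of the libraries is unknown.

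All 10 genes were expressed in all 8 libraries, at levels spanning more than an order of magnitude. Levels are given as unnormalized FPKM, a per-length scale on which genes can be compared, and A precedes B for each group. IGLL1, the immunoglobulin lambda-like part of the surrogate light chain, was the most abundant and ranked 109th of the genes tested. It read 615 and 943 in SE DOX, 623 and 937 in SE vehicle, 918 and 1019 in WT DOX and 939 and 1024 in WT vehicle. The SE libraries of letter A stood alone at the low end, while those of letter B overlapped the WT range. IGLL1 has close relatives in the immunoglobulin lambda locus, so reads can be divided between copies and its level is uncertain.

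VPREB1, the variable-like part of the surrogate light chain, read 289 and 339 in SE DOX, 292 and 315 in SE vehicle, 278 and 295 in WT DOX and 276 and 317 in WT vehicle. The groups overlapped, and letter B was above letter A in each of them. VPREB3, an endoplasmic reticulum protein of the same family that binds nascent receptor chains, read 87.7 and 95.2 in SE DOX, 92.3 and 92.4 in SE vehicle, 92.9 and 110 in WT DOX and 91.0 and 111 in WT vehicle. Its SE libraries were close together, and the WT libraries of letter B were the highest.

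The signalling chains of the receptor differed in how they ranked between lines. CD79A read 116 and 105 in SE DOX, 117 and 98.2 in SE vehicle, 158 and 137 in WT DOX and 151 and 147 in WT vehicle. Every SE library lay below every WT library. CD79B, its partner in the dimer, read 272 and 228 in SE DOX, 297 and 213 in SE vehicle, 226 and 189 in WT DOX and 233 and 201 in WT vehicle. For CD79B the groups overlapped, and the highest values belonged to the SE libraries of letter A.

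Among the Src family kinases, LYN read 25.8 and 20.7 in SE DOX, 25.6 and 21.2 in SE vehicle, 40.5 and 31.6 in WT DOX and 39.3 and 30.9 in WT vehicle. BLK read 21.5 and 23.6 in SE DOX, 22.1 and 23.4 in SE vehicle, 25.2 and 26.3 in WT DOX and 24.7 and 26.8 in WT vehicle. For both kinases every SE library lay below every WT library, with a wider gap for LYN. They were the least abundant of the 10, BLK at rank 3971.

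SYK, the kinase that docks on the phosphorylated chains, read 85.6 and 83.4 in SE DOX, 84.9 and 82.9 in SE vehicle, 86.7 and 70.8 in WT DOX and 85.1 and 70.6 in WT vehicle. The WT libraries of letter B were the low ones, and the other libraries lay together. BTK, the Tec family kinase that activates phospholipase C gamma, read 81.1 and 88.7 in SE DOX, 83.0 and 91.5 in SE vehicle, 101 and 88.0 in WT DOX and 103 and 89.3 in WT vehicle, with letter A of WT the highest. The adaptor BLNK read 55.3 and 59.0 in SE DOX, 55.0 and 59.0 in SE vehicle, 84.7 and 57.0 in WT DOX and 84.6 and 58.9 in WT vehicle. The WT libraries of letter A stood apart, and the WT libraries of letter B lay within the range of the SE libraries.

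**Figure D1:**
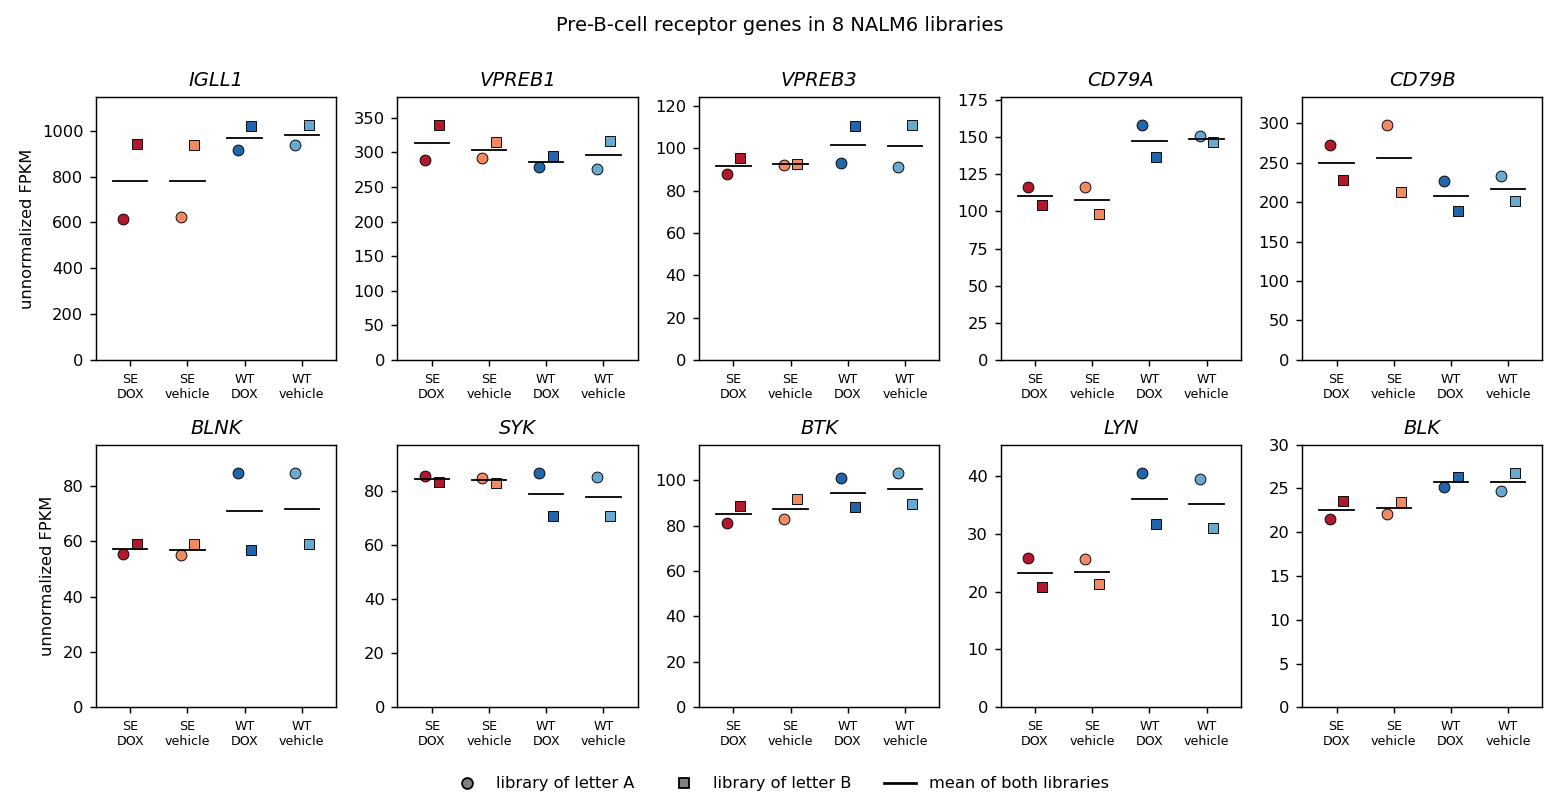
Unnormalized FPKM of each gene (vertical axes, from 0) in the SE DOX, SE vehicle, WT DOX and WT vehicle groups, with circles for letter A, squares for letter B and a line at the mean of both. CD79A, LYN and BLK have no overlap between SE and WT, IGLL1 is low in SE letter A (615 and 623), and BLNK is high in WT letter A (84.7 and 84.6).

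By mean level over the 8 libraries the order was IGLL1, VPREB1, CD79B, CD79A, VPREB3, BTK, SYK, BLNK, LYN and BLK. Of the neighbours in this order, IGLL1 and VPREB1, CD79B and CD79A, and BLNK and LYN had ranges over the libraries that did not overlap. The other neighbours overlapped. VPREB3 against BTK, BTK against SYK, and LYN against BLK each kept their order in 6 of 8 libraries.

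The first comparison set DOX against vehicle within each line after 6 hours. The treatment was meant to induce HMGN1, whose own level was not higher with DOX. None of the 10 was called in either line. In SE DOX against SE vehicle 0 of 10 genes passed an adjusted p of 0.05 (limma on log2 of spike-in-normalized FPKM + 0.1), where 0.0523% of all genes tested did. The log2 fold changes of the members ran from −0.28 (BTK) to −0.20 (VPREB1), with a median of −0.25, beside −0.24 for all genes. Their adjusted p-values by limma were 0.537 to 0.572, and their 95% intervals reached from −1.05 to 0.55. The fit had no term for the letters in either line, so the intervals include the spread between letters A and B. With the letters as a block 0 members were called in SE, with a smallest limma adjusted p of 0.0606, beside 1663 of all genes. In WT DOX against WT vehicle 0 of 10 were called, where 0.0698% of all genes were. The members' log2 fold changes ran from −0.09 (CD79B) to 0.01 (LYN), with a median of −0.04 beside −0.03 for all genes, and 95% intervals from −0.85 to 0.76.

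The DOX effect in SE minus that in WT was tested directly. It was called for 0 of 10 members, against 0.0785% of all genes, with values of −0.26 (LYN) to −0.12 (VPREB1), a median of −0.21 that equalled the median of all genes, and limma adjusted p-values of 0.830 to 0.842. No member had an unadjusted p under 0.05 in any of these 3 comparisons. The 2 letters gave unequal shifts. On the normalized scale the SE libraries of letter A had a median DOX to vehicle ratio over the members of 0.764, beside 0.783 for all genes, and those of letter B had 0.928, beside 0.912. The members lay close to the shift of all genes in each letter, and SE DOX A also had the largest spike-in share.

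On the unnormalized scale the same-letter DOX to vehicle ratios were close to 1 for every gene. They ran from 0.917 (CD79B) to 1.01 (SYK) in SE A, from 0.970 (BTK) to 1.08 (VPREB1) in SE B, from 0.974 (CD79B) to 1.05 (CD79A) in WT A and from 0.930 (VPREB1) to 1.02 (LYN) in WT B. Across the members the median size of a DOX difference was 0.03 on the log2 scale. The median size of an A against B difference within a group was 0.18, and that of an SE against WT difference at the same treatment was 0.22. The corresponding medians over all genes were 0.05, 0.13 and 0.13.

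**Figure D2:**
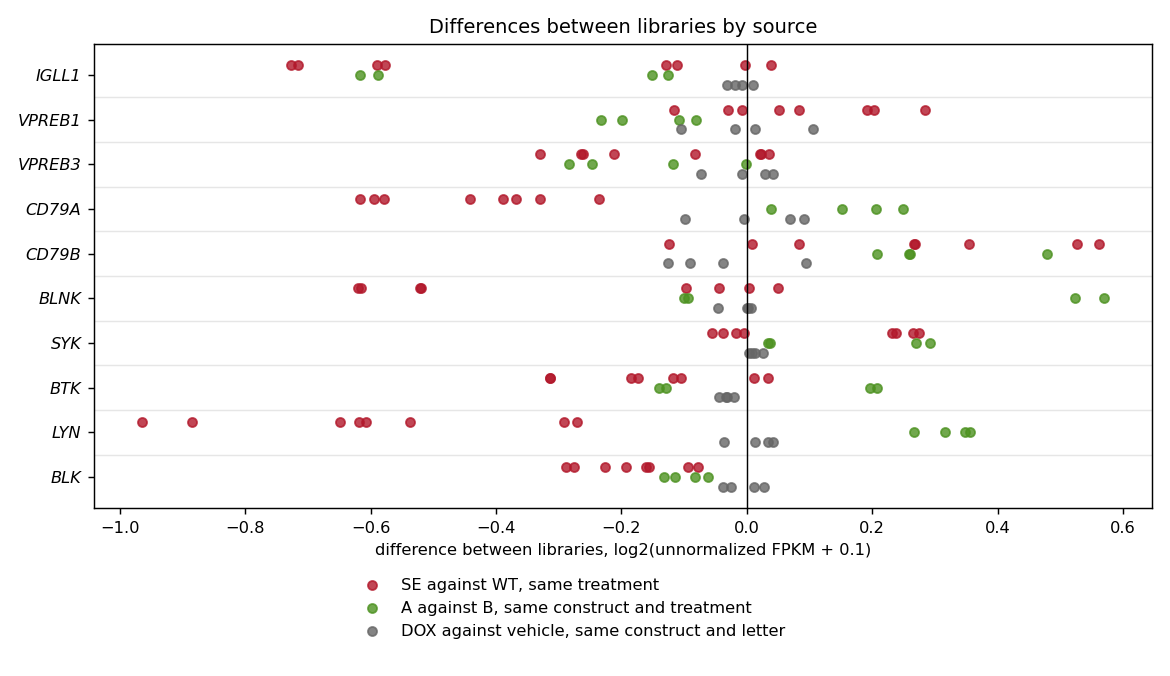
Differences between libraries in log2(unnormalized FPKM + 0.1) (horizontal axis) for each gene, as SE minus WT at the same treatment, A minus B within a group, and DOX minus vehicle within a construct and letter. DOX differences all lie within 0.13 of 0, whereas A against B reaches 0.62 in size (IGLL1 in SE) and SE against WT reaches 0.96 (LYN).

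In unnormalized FPKM the letters thus lay farther apart than the treatments for these genes, and the ratios given next are on that scale. In SE the mean of letter A over letter B was 0.659 for IGLL1 and 1.29 for CD79B. In WT it was 1.46 for BLNK and 1.22 for SYK, whereas in SE it was 0.935 for BLNK and 1.02 for SYK. LYN had letter A above letter B in both lines, 1.22-fold in SE and 1.28-fold in WT. On the spike-in scale the ratios in SE were 0.563 for IGLL1, 1.11 for CD79B, 0.791 for BLNK, 0.868 for SYK and 1.03 for LYN. In WT they were 1.71 for BLNK, 1.42 for SYK and 1.49 for LYN on that scale. These are descriptions of 2 libraries per letter and line, without a test. Whether the vehicle and DOX libraries of a letter came from the same culture is not stated.

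The second comparison set the SE line against the WT line over both treatments, 4 libraries against 4. The fit counted each library as independent, although vehicle and DOX libraries of a letter may share a culture. On the spike-in scale 7 of 10 members were lower in SE by limma, and 60.1% of all genes tested were called lower. The called members were LYN (log2 fold change −1.01 ± 0.18, standard error as for the others), CD79A (−0.85 ± 0.17), IGLL1 (−0.75 ± 0.25), BLNK (−0.70 ± 0.24), BLK (−0.59 ± 0.15), BTK (−0.55 ± 0.20) and VPREB3 (−0.54 ± 0.17), with limma adjusted p-values of 0.0401 to 0.0419. VPREB1 (−0.32 ± 0.19), SYK (−0.29 ± 0.19) and CD79B (−0.16 ± 0.20) were not called, with limma adjusted p-values of 0.154, 0.184 and 0.477. No member was called higher, against 0.419% of all genes. The members' median was −0.57 and that of all genes −0.43, so the count of lower members is near the background and is not a result about these genes. In bulk libraries a lower level in every cell and a lower level in fewer cells cannot be told apart.

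The count of called members followed that of all genes when a library was left out. Without SE DOX A, SE vehicle A, SE vehicle B, WT DOX A or WT vehicle A, 0 members were called, beside 36 to 99 of all genes. The members' median in these 5 fits was still −0.63 to −0.45, and their smallest limma adjusted p was 0.0590 to 0.102. Without WT DOX B or WT vehicle B 6 members were called, beside 6203 and 4802 genes, and without SE DOX B 8 were called, beside 8903 genes. When each letter was averaged over its treatments, LYN was the one member called (limma adjusted p 0.00878), beside 338 of all genes.

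Setting every library to the same median removed the shift of the whole transcriptome. On that scale 0 of 10 members passed the threshold by limma, beside 0.436% of all genes. An unadjusted p under 0.05 was found for 3 members and for 16.6% of all genes, and the members' median was −0.17 beside −0.02 for all genes. LYN was −0.61 ± 0.13 (standard error; limma adjusted p 0.161), CD79A −0.44 ± 0.08 (limma adjusted p 0.131) and BLK −0.19 ± 0.05 (limma adjusted p 0.217). IGLL1 was −0.34 ± 0.18 and BLNK −0.30 ± 0.16, with the widest errors among the members on this scale. CD79B (0.25 ± 0.14), SYK (0.11 ± 0.09) and VPREB1 (0.09 ± 0.08) were above 0 on this scale, against values below 0 on the spike-in scale. Before any scaling, in unnormalized FPKM, every SE library was below every WT library for 3 of 10 members, CD79A, LYN and BLK, beside 11.5% of all genes. No member had every SE library above every WT library, beside 7.95% of all genes.

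**Figure D3:**
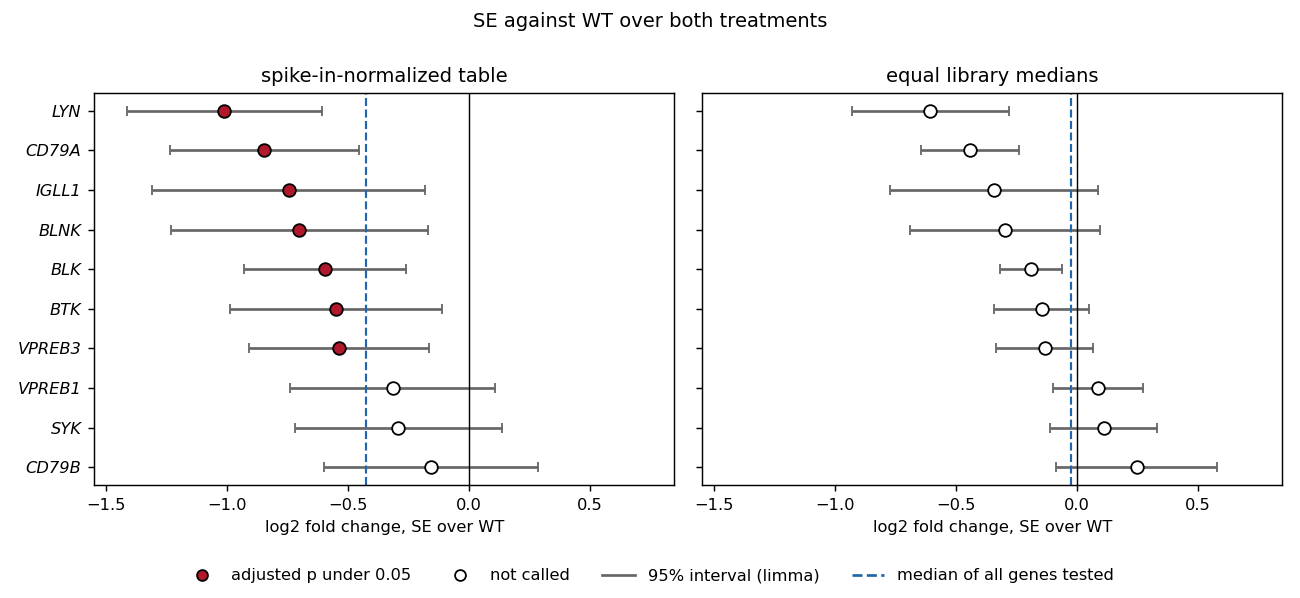
Log2 fold change of SE over WT (horizontal axis) for each gene with its 95% interval from limma, on the spike-in scale (left) and with equal library medians (right). Filled points have an adjusted p under 0.05, and the dashed line is the median of all genes tested (−0.43 left, −0.02 right). LYN and CD79A are lowest on both scales, and no point is filled on the right.

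Ratios between members within a library do not depend on how libraries are scaled. In 4 of the 5 ratios compared, the SE and WT libraries did not overlap, each with an exact two-sided permutation p of 0.0286, the smallest that 4 against 4 allows, and 0.0357 adjusted over the 5. Of all 45 ratios between members 16 (35.6%) had no overlap between the lines, beside 19.8% of the ratios between any 2 of the 11278 tested genes above 0 in every library, and ratios that share a gene are not independent. CD79B over CD79A was 2.34 and 2.18 in SE DOX, 2.55 and 2.17 in SE vehicle, 1.43 and 1.38 in WT DOX and 1.54 and 1.37 in WT vehicle. The encoded proteins form a dimer of 1 chain each, and the transcript ratio was 0.69 higher in SE on the log2 scale. IGLL1 over VPREB1 was 2.13 and 2.78 in SE DOX, 2.13 and 2.98 in SE vehicle, 3.30 and 3.46 in WT DOX and 3.40 and 3.23 in WT vehicle. This ratio of the surrogate light chain parts was lower in SE by a mean difference of −0.43 on the log2 scale, and its SE libraries again split by letter.

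VPREB3 over VPREB1 was 0.304 and 0.281 in SE DOX, 0.316 and 0.293 in SE vehicle, 0.334 and 0.374 in WT DOX and 0.330 and 0.350 in WT vehicle, a log2 difference of −0.22. BTK over SYK was 0.948 and 1.06 in SE DOX, 0.978 and 1.10 in SE vehicle, 1.16 and 1.24 in WT DOX and 1.21 and 1.26 in WT vehicle, a log2 difference of −0.26. For both, the gap between the lines was narrow beside the spread within them. BLK over LYN was 0.835 and 1.14 in SE DOX, 0.865 and 1.10 in SE vehicle, 0.622 and 0.833 in WT DOX and 0.629 and 0.868 in WT vehicle, and the lines overlapped (log2 difference 0.42, exact permutation p 0.114, 0.114 adjusted). These tests count each library as independent. If vehicle and DOX libraries of a letter share a culture, the comparison is 2 against 2, for which the smallest p is 0.33.

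**Figure D4:**
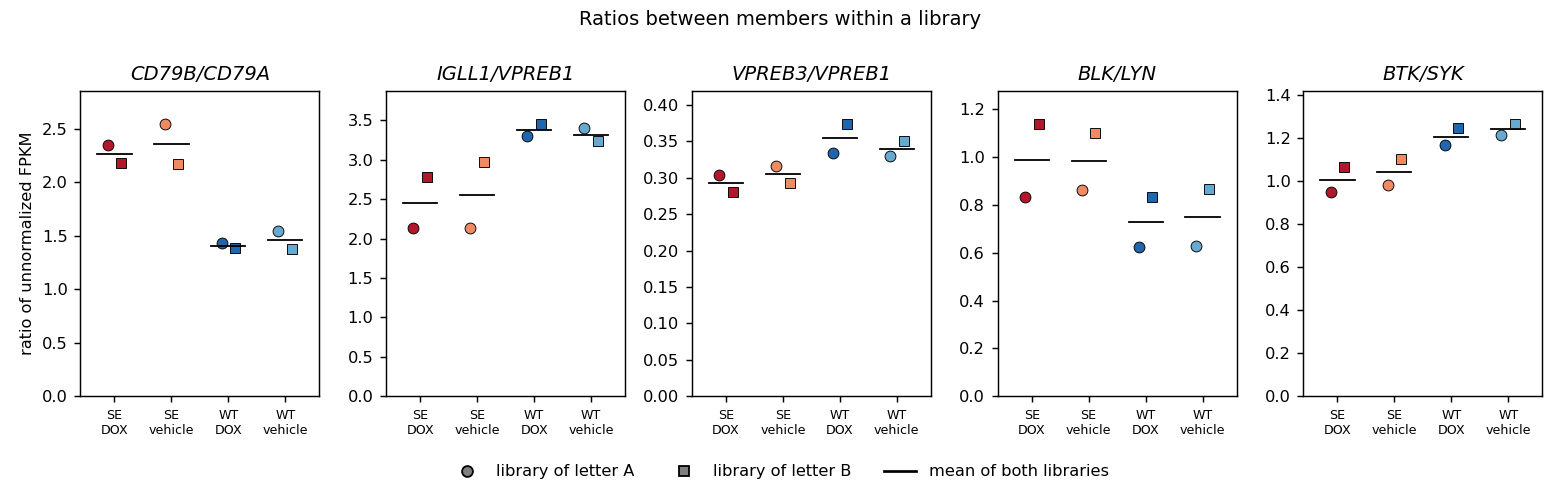
Ratios of unnormalized FPKM between pairs of genes (vertical axes, from 0) in the SE DOX, SE vehicle, WT DOX and WT vehicle groups, with circles for letter A, squares for letter B and a line at the mean of both. CD79B over CD79A lies at 2.17 to 2.55 in SE and 1.37 to 1.54 in WT, and BLK over LYN is the one ratio whose lines overlap.

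Across the 8 libraries the members did not vary as a unit. Of the 45 pairs of members 25 correlated positively (Pearson, log2 values at equal library medians), with a median of 0.22 and a range of −0.96 (VPREB3 with SYK) to 0.97 (CD79A with LYN). The genes most like the members' mean profile, among 8722 candidates, were GPRIN1 (0.993), KIAA0930 (0.991), RAB3A (0.990), ATP6V0B (0.990) and CDC42 (0.989). The libraries share lines and possibly cultures, and these correlations are descriptions.

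The other 9 lists held the partners of these proteins, 124 genes of which 119 were in the tables and 97 were tested. None of the 97 was called by limma in any DOX comparison. In SE against WT 64 were called lower on the spike-in scale, which is 66.0% beside 60.1% of all genes, and 0 were called higher. At equal library medians 0 of the 97 were called and 28 had an unadjusted p under 0.05, as had 16.6% of all genes. In unnormalized FPKM, 22 of the 97 (22.7%) had every SE library below every WT library and 5 (5.15%) every SE library above, beside 11.5% and 7.95% of all genes. The folds named next are spike-in log2 values by limma, each called lower in SE unless stated. The count of each list is to be read beside the 60.1% of all genes called lower.

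Among receptor kin 2 of 3 were lower: IGJ, the joining chain of secreted antibodies (−2.68), and IGLL3P, a surrogate light chain pseudogene (−0.81), with IGLL5 at −0.36 and not called. IGJ read 0.733 and 1.22 unnormalized FPKM in SE DOX, 0.972 and 0.971 in SE vehicle, 12.5 and 2.52 in WT DOX and 12.6 and 2.17 in WT vehicle, so WT A exceeded WT B several times over. Of the other Src family kinases 2 of 4 were lower, FYN (−0.46) and LCK (−0.71), while SRC was at −0.31 and not called. The median of all genes was −0.43, and at equal medians FYN was −0.06 and LCK −0.30. LCK read 2.97 unnormalized FPKM in WT DOX A and 3.06 in WT vehicle A, below every SE library. It read 6.42 in WT DOX B and 6.79 in WT vehicle B, above every SE library. Both other Syk and Tec family kinases were lower, ZAP70 (−0.995) and TEC (−0.75). ZAP70, the T-cell counterpart of SYK that B-lineage leukemias can express, read 11.0 and 14.5 in SE DOX, 11.5 and 12.8 in SE vehicle, 18.8 and 18.3 in WT DOX and 18.4 and 19.1 in WT vehicle, without overlap. T-cell markers were at or near 0 in the same libraries. At equal medians ZAP70 was −0.59, with a limma adjusted p of 0.0808.

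Among adaptors and VAV exchange factors 7 of 16 were lower, with the smallest p for LAT2 (−0.73), VAV1 (−0.49) and CD2AP (−0.45). In the coreceptor and PI3-kinase list 9 of 15 were lower, among them IFITM1 (−1.13) and PIK3CB (−0.56). IFITM1 read 9.83 and 3.67 unnormalized FPKM in SE DOX and 9.13 and 4.30 in SE vehicle. It read 6.19 and 9.33 in WT DOX and 10.1 and 18.8 in WT vehicle, so its lines overlapped. Downstream of phospholipase C gamma 13 of 18 were lower, led by the calcium sensors STIM1 (−0.68) and STIM2 (−0.60) and the calcineurin subunit PPP3CB (−0.52). In the RAS to ERK arm 9 of 11 were lower, among them MAPK3 (−0.52) and SOS1 (−0.35). The list medians were −0.32, −0.51, −0.45 and −0.44 in this order, beside −0.43 for all genes, of which 60.1% were called lower. At equal library medians, where all genes had a median of −0.02, the genes named here ran from −0.73 (IFITM1) to 0.055 (SOS1). VAV1 was −0.09 and CD2AP −0.04 on that scale, and of these named genes SOS1 alone was above 0. The list medians there were 0.08, −0.11, −0.05 and −0.04 in the same order, so the adaptors' median was above 0. In unnormalized FPKM every SE library was below every WT library for 3, 5, 5 and 0 genes of the lists, beside 11.5% of all genes. Every SE library was above every WT library for 2, 2, 0 and 0, beside 7.95% of all genes.

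Of the inhibitory receptors and phosphatases 12 of 16 were lower, beside 60.1% of all genes, led by PTPN22 (−1.12), PTPRC (−1.69) and CD22 (−1.14). The list median was −0.49, beside −0.43 for all genes, and at equal library medians it was −0.08, beside −0.02. PTPRC read 2.33 and 0.854 unnormalized FPKM in SE DOX and 1.93 and 0.962 in SE vehicle. It read 2.30 and 6.06 in WT DOX and 2.15 and 5.99 in WT vehicle, and the lines overlapped in letter A. CD22, the sialic-acid-binding inhibitory coreceptor of B cells, read 15.7 and 25.1 in SE DOX, 16.2 and 25.4 in SE vehicle, 30.9 and 36.0 in WT DOX and 29.2 and 37.9 in WT vehicle. Its lines did not overlap, and letter B was the higher in both. Of 12 transcription regulators of pre-B-cell receptor genes 8 were lower, led by BCL6 (−1.40), IRF8 (−1.07) and SPI1 (−0.64). Their list median was −0.57, and −0.17 at equal library medians. BCL6, a repressor that pre-B cells induce downstream of the receptor, read 3.86 and 5.75 in SE DOX, 3.63 and 5.71 in SE vehicle, 9.36 and 9.30 in WT DOX and 9.64 and 9.33 in WT vehicle. Its limma adjusted p was 0.0273 on the spike-in scale and 0.105 at equal medians.

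The marker genes were compared between the lines too. Of the mature B and plasma cell markers tested, FCER2 (−1.78) and MS4A1 (−1.33) were lower in SE on the spike-in scale and SDC1 was at 0.10 and not called. At equal medians they were −1.38, −0.93 and 0.50, so this list did not go in 1 direction. Of the B-cell precursor markers 4 of 8 were called lower, beside 60.1% of all genes, led by CD22, MME (−0.58) and RAG2 (−0.49). The median of all genes was −0.43. DNTT (0.19, and 0.59 at equal medians) and RAG1 (0.28, and 0.68 at equal medians), which act in antigen receptor gene rearrangement, lay above 0 without being called. In unnormalized FPKM every SE library was above every WT library for DNTT, RAG1 and SDC1, beside 7.95% of all genes. Every SE library was below every WT library for CD22, MME and FCER2, beside 11.5% of all genes, and the lines overlapped for MS4A1. LYZ was at −1.24 and called lower, and in unnormalized FPKM it reached 4.62 in WT vehicle A. None of these markers was called at equal medians, and their part in the members' differences was not tested.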

How the data were processed

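RNA of 8 NALM6 libraries in 4 groups of 2 was analysed, grouped by the genotype and treatment labels, with letters A and B from the replicate label. The authors deposited FPKM per gene in an unnormalized and a normalized table, and they worked with hg19, HISAT and Cufflinks 2.0.0, per the submitters' processing notes. The sources used here do not say how the second was normalized. Spike-in sums ran from 5675 to 10042 in the unnormalized and from 7050 to 7166 in the normalized table, and the normalized table is therefore called spike-in-normalized. Without counts the depth is unknown, and no counting interval is given. In the unnormalized table the most common ratio of low values between libraries was 0.993 to 1.00, found for 23.3 to 25.9% of low rows.

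log2(normalized FPKM + 0.1) of the 11465 genes with a mean of at least 1 was fitted with limma (version 3.58.1, R 4.3.3, trended empirical Bayes), all 4 groups sharing 1 spread, with Benjamini-Hochberg adjustment over all genes and a threshold of 0.05. Fold changes on this scale understate low genes. The scripts were tested on simulated data. The labels call the letters biological replicates, and how cultures were kept apart is not given, so p-values measure the spread between these libraries. Ratios used an exact two-sided permutation test, and the overlap count over all pairs of genes was added after the data were seen. The members and lists were chosen with earlier results of these data known. The genes named per list are the 3 of smallest p in SE against WT, and the rule's other genes, those past the threshold, are given as counts; some genes the rule names are not reported here. Reads of overlapping or antisense genes cannot be told apart. Sequences are from RefSeq (GRCh38.p14), and gene coordinates in hg19 are not used here. The alternatives tried were a pseudocount of 1, the unnormalized table, equal library medians, no filter, small RNA names left out, a replicate block, fewer groups, and each library left out.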

Additional observations from a re-analysis of the deposited data

How the results depend on the processing

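No member was called in the DOX comparisons or in their difference under any alternative. Direction was not stable there: signs differed from those given in 9 of 90 values in WT, 15 of 90 in SE and 20 of 80 for the difference, and in 16, 3 and 17 of 80 with a library left out. All genes called in WT DOX against vehicle numbered 8, against 5 unnormalized, 5 at equal medians, 0 without small RNA names on either scale, 181 with the replicate block, 2 with the block, equal medians and no small RNA names, and 9 to 27 leaving out a library. In SE they numbered 6, against 1 without small RNA names, 0 with equal medians too, 1663 with the replicate block, 0 with the block on that scale, 138 with the 2 groups alone, and 8 to 25 leaving out a library. For the difference they numbered 9, against 5 unnormalized, 1 and 0 without small RNA names, 227 and 0 with the block, and 17 to 36.

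In SE against WT 6936 genes and 7 members were called. The counts were 6763 and 7 with a pseudocount of 1, 7753 and 7 without small RNA names, 56 and 0 unnormalized, 50 and 0 at equal medians, 57 and 0 without the filter, 52 and 0 at equal medians without small RNA names, 12 and 0 in DOX, 21 and 0 in vehicle, and 36 to 8903 and 0 to 8 leaving out a library. With the replicate block, run on letter means, they were 338 and 1, and 5 and 0 at equal medians without small RNA names. The filter and the small RNA names change which genes enter the adjustment; the other causes were not tested. CD79B, VPREB1 and SYK reversed to 0.24, 0.083 and 0.11 unnormalized, to 0.25, 0.088 and 0.11 at equal medians, and to 0.25, 0.089 and 0.11 there without small RNA names, with or without the block.

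The ratios kept their direction in every alternative run, but some of these runs could not have changed it. The replicate block averages the vehicle and DOX libraries of each letter, so it must return the main differences. With the replicate block (adjusted exact permutation p 0.417, unable to pass at 2 against 2) they were 0.69, −0.43, −0.22 and −0.26 for CD79B/CD79A, IGLL1/VPREB1, VPREB3/VPREB1 and BTK/SYK. Leaving out a library gave 0.64 to 0.72, −0.52 to −0.36, −0.24 to −0.18 and −0.29 to −0.22, and 0.34 to 0.50 for BLK/LYN. Without WT DOX B or WT vehicle B all 4 lost the call, as did IGLL1/VPREB1 without WT DOX A or WT vehicle A. Leaving out a library cannot add overlap, so the lines had to stay apart, and the direction had to hold, in these 4 ratios. A lost call means that the adjusted permutation p was no longer under 0.05, and why this depended on the library left out was not tested. Letters were checked for pairing by correlating the A minus B deviations of the DOX and vehicle libraries over 11163 genes (0.739 in SE, 0.767 in WT), but with 2 pairs a comparison and no statement in the labels they are taken as a number alone. Groups of 2, unknown depth and the split between letters limit what these data can show.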
